A study of Mus musculus with 61 samples.

Results

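Genes of the epithelial-mesenchymal transition (EMT) were followed through RNA-seq of mouse stembryos, which are aggregates of embryonic stem cells (also called gastruloids) that elongate into a structure resembling a posterior body axis. The 10 genes, Cdh1, Epcam, Esrp1, Cdh2, Vim, Snai1, Snai2, Zeb1, Zeb2 and Twist1, were picked by gene name from the 55052 genes of the table, and each was measured in all 61 libraries. Levels are given in FPKM, a fragment count normalised to transcript length and to library depth. The study asked how sites bound by the architectural protein CTCF (CTCF-binding sites, CBS) in the HoxD gene cluster time the activation of Hox genes, and the EMT genes were outside its target locus.

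In the wild-type time course, each of 8 stages had 2 libraries (72, 84, 96, 108, 120, 132, 144 and 168 h after aggregation). Separate wild-type libraries, 4 each at 96 and 120 h and 2 at 144 h, served as controls for the mutants and are called outside the time course. The mutants lacked a single CTCF site, Del(CBS1), Del(CBS2) and Del(CBS4), or several, Del(CBS1-2) and Del(CBS1-5). Others lacked the DNA from Hoxd1 to Hoxd4, Del(d1-d4), or an enhancer-containing domain beside the cluster, Del(sub-TAD1), or carried a cassette with 2 more CTCF sites next to CBS1, Ins(2xCBS-d4d8). Of their 17 conditions, Del(sub-TAD1) at 96 h had 3 libraries and every other had 2. Mutants were sampled at 96 and 120 h, Del(CBS1-5) also at 144 h, and Del(CBS4) at 120 and 144 h instead. All stembryos, wild type included, had received a pulse of the GSK-3 inhibitor Chiron, an agonist of Wnt signalling, before the first stage. Per the study's methods, most lines were homozygous clones of a 129 stem cell line, Del(CBS1-2) was made in Del(CBS1) cells, and Del(CBS1-5) and Del(sub-TAD1) came from blastocysts of mutant mice, the latter with a transgene that restores the deleted Mtx2 gene. In these 2 mutants, genotype and origin of the line cannot be told apart. A library was made from pooled stembryos, so that an FPKM level cannot tell fewer cells of a type from less RNA per cell. Collection differed by stage, since unelongated or dying stembryos were discarded at 108 h and later but not before, so that stages on either side of that point differ in selection as well as in age.

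EMT is the change by which cells of an epithelial sheet loosen their junctions and become motile, and in the embryo it takes cells out of the epiblast through the primitive streak to form mesoderm. E-cadherin at adherens junctions is commonly replaced by N-cadherin on the way, a change known as cadherin switching, and transcription factors of the SNAIL, ZEB and TWIST families are known repressors of epithelial genes. The reverse change, from mesenchyme to epithelium, takes place when somites or tubules form.

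SNAIL and ZEB proteins are known to bind the E-box CAGGTG, which reads CACCTG on the other strand. The promoters that bear these letters among the members, and the Ap1m2 promoter of the wider epithelial list because it holds the motif 4 times, are shown with the 250 bases before the start site from RefSeq (build GRCm38.p6), each on the strand of its gene. Capitals mark the motif on either strand. Ap1m2 encodes a subunit of an epithelial sorting adaptor.
Epcam, chr17:87635729-87635978, + strand: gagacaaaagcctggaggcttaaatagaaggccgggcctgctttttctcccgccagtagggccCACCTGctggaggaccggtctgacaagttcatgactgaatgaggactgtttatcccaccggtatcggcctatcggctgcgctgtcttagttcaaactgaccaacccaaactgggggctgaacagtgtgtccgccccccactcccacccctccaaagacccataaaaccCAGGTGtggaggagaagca
Snai1, chr2:167537945-167538194, + strand: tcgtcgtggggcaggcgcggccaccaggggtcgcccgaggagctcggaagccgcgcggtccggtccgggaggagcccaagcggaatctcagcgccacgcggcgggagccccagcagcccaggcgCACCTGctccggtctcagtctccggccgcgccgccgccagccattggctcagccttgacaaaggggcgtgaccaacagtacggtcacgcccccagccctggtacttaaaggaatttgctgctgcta
Ap1m2, chr9:21312334-21312583, - strand: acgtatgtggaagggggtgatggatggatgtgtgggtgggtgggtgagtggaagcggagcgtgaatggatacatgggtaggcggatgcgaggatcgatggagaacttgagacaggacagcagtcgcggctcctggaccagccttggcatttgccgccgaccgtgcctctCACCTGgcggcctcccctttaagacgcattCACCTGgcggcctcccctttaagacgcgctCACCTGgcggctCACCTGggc
In the Epcam window the motif began 187 and 19 bases before the start site, in the Snai1 window 126 bases and in the Ap1m2 window 81, 51, 21 and 9 bases before it. Of all 32851 windows of this length, 5657 (17.2%) held the motif at least once. Windows were given for 5 of the 10 members, and for Cdh1, Esrp1, Snai2, Cdh2 and Zeb1 none was used. Of the 21 matched genes in a list of epithelial junction and keratin genes, 13 had a window with the motif (15 of 26 windows, 57.7%). Of the 16 matched genes in a list of mesenchymal matrix, adhesion and cytoskeleton genes, 0 had one. Among the members, 2 of 8 windows held the motif (25%). The share was 15.4% of 13 windows for other transcription factors linked to EMT and 16.7% of 6 windows for catenins. For RNA-binding proteins of epithelial or mesenchymal splicing it was 0 of 14 windows. A match is a description of letters and shows no binding.

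The depth implied by the FPKM values and confidence bounds of single-transcript genes ran from 13.7 to 34.9 M fragments per library (median, 21.8 M, where M stands for 1e6). The libraries fell into 2 sets by mitochondrial mRNA, with mt-Co2 at 576 to 1464 FPKM in the 28 libraries of set 1 and at 0.205 to 3.85 FPKM in the 33 of set 2. The sets differed beyond mitochondrial mRNA. The sum of 1615 pseudogenes was 31405 to 36036 FPKM in set 1 and 1706 to 3642 FPKM in set 2. Total FPKM per library was 605412 to 657594 in set 1 and 461923 to 551878 in set 2. Set 2 comprised every time-course library, all of 144 h, wild-type replicate 4 of 96 and 120 h, the insertion, Del(CBS4), and of Del(sub-TAD1) the 96-h libraries. Set 1 comprised the rest, with replicates 1 to 3 of wild type. For the members, mutants are therefore also given against controls of their own set. These are the 3 set 1 libraries of their stage, or in set 2 the time-course libraries of that stage together with those outside it. Counts of wider lists and of marker genes in mutants were made only with the controls outside the time course. The reason for the split is not given in the sources used here. Wild-type replicate 3 stood apart, with a summed level of 7 pluripotency genes of 133 FPKM at 96 h and 114 FPKM at 120 h, against 33.8 to 46.4 and 12.5 to 27.1 FPKM in the other 3 libraries of these stages. At 120 h its sum of 6 endoderm genes was also the highest, at 178 FPKM against 30.1 to 52.8 FPKM in the others. At 96 h that sum was the lowest, at 135 against 148 to 195 FPKM. The labels do not say from which stem cell line each wild-type library came, so that for these controls mutation and line cannot be told apart from the labels. Hoxd1, Hoxd3 and Hoxd4 were listed at 0 in all 4 libraries of Del(d1-d4) and lay between 4.59 and 35.4 FPKM in the 8 wild-type libraries of the same stages.

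From 72 to 168 h of the time course, all 10 members passed the threshold (limma, adjusted p under 0.05 over 17098 tested genes), as did 48.2% of all genes tested. Cdh1, Epcam, Esrp1 and Snai1 fell, and Cdh2, Vim, Snai2, Zeb1, Zeb2 and Twist1 rose. Leaving out any 1 library ended none of these 10 calls, although the fall of Snai1 (-2.11 ± 0.31, adjusted p = 4.9e-07) ran from -1.40 without replicate 1 at 72 h to -2.82 without replicate 2. All 10 also varied over the 8 stages in an F test, against 61.8% of all genes. The decline of the epithelial members was not steady, since all of them rose again between 132 and 144 h.

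Cdh1 (ENSMUSG00000000303, chr8:106603351-106670246, mm10, + strand) encodes E-cadherin, the adhesion protein of epithelial adherens junctions. Its level was 157 and 200.3 FPKM at 72 h, 124 and 137 FPKM at 84 h, 21.3 and 42.4 FPKM at 96 h and 5.89 and 5.70 FPKM at 108 h. It then read 13.8 and 3.52 FPKM at 120 h, 4.13 and 6.10 FPKM at 132 h, 18.03 and 15.5 FPKM at 144 h and 10.5 and 9.01 FPKM at 168 h. The 72-h and 84-h libraries all lay above every later one, and the 2 libraries at 120 h lay far apart. Cdh1 fell from 84 to 96 h (log2 change of -2.11 ± 0.44, SE, adjusted p = 0.000433) and again from 96 to 108 h (-2.36 ± 0.44, adjusted p = 0.000408), and rose from 132 to 144 h (1.71 ± 0.44, adjusted p = 0.0154). At 168 h its mean was 18.3 times lower than at 72 h (-4.17 ± 0.44, adjusted p = 4.55e-10). Pluripotency genes fell over the same stages. The sum of the 7 genes was 1278 to 1369 FPKM at 72 h, 558 to 596 FPKM at 84 h, 45.4 to 85.0 FPKM at 96 h and 18.7 to 20.6 FPKM at 108 h, with 2 of the 7 lower from 72 to 84 h, 1 lower and 1 higher from 84 to 96 h and 2 lower from 96 to 108 h. None of the 7 was listed at 0 in both libraries of a stage from 84 to 108 h. Their part in the falls of Cdh1, Epcam and Esrp1 was not tested.

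Epcam (ENSMUSG00000045394, chr17:87635979-87651129, + strand) encodes an epithelial cell adhesion molecule. Its level went from 100.3 and 119 FPKM at 72 h over 74.1 and 79.8 FPKM at 84 h and 18.6 and 27.5 FPKM at 96 h to 8.78 and 10.3 FPKM at 108 h. The later stages read 27.0 and 6.74 FPKM at 120 h, 5.81 and 10.05 FPKM at 132 h, 28.9 and 26.7 FPKM at 144 h and 21.5 and 19.7 FPKM at 168 h. The order of stages was that of Cdh1 up to 108 h, and replicate 1 at 120 h was again the higher of its pair. Epcam fell from 84 to 96 h (-1.76 ± 0.42, adjusted p = 0.00178) and rose from 132 to 144 h (1.85 ± 0.42, adjusted p = 0.00573).

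Esrp1 (ENSMUSG00000040728, chr4:11331933-11386783, - strand) encodes a splicing regulator that sustains epithelial isoforms. It was listed at 43.0 and 43.1 FPKM at 72 h, 23.0 and 23.7 FPKM at 84 h, 8.05 and 5.26 FPKM at 96 h and 1.76 and 2.06 FPKM at 108 h. Levels of 4.47 and 1.22 FPKM at 120 h, 0.899 and 2.31 FPKM at 132 h, 7.40 and 6.84 FPKM at 144 h and 4.64 and 4.02 FPKM at 168 h followed. Both libraries at 144 h exceeded all of those from 108 to 132 h. Esrp1 fell from 84 to 96 h (-1.83 ± 0.47, adjusted p = 0.0037) and from 96 to 108 h (-1.72 ± 0.47, adjusted p = 0.014), and rose from 132 to 144 h (2.22 ± 0.47, adjusted p = 0.00328). The first fall lost its call without replicate 2 at 96 h (-1.53, adjusted p = 0.0714). The second lost it without replicate 1 at 96 h (-1.42, adjusted p = 0.105) and without replicate 1 (-1.62, adjusted p = 0.103) or 2 (-1.83, adjusted p = 0.0621) at 108 h.

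The rise at 144 h was seen in both libraries for all 3 epithelial members, but its call rested on single libraries. Without replicate 1 at 132 h, the lower library of that stage for these genes, the log2 change was 1.44 for Cdh1 (adjusted p = 0.172), 1.46 for Epcam (adjusted p = 0.127) and 1.58 for Esrp1 (adjusted p = 0.128). Cdh1 also missed the threshold without replicate 1 (1.60, adjusted p = 0.138) or 2 (1.82, adjusted p = 0.0795) at 144 h, and Epcam without replicate 1 at 144 h (1.79, adjusted p = 0.0614). Markers of other cell types moved with this rise. Of 7 endothelium genes, 5 were higher at 144 h (summed level, 35.5 to 38.2 FPKM against 4.21 to 9.30 at 132 h). Of 6 endoderm genes, 2 were higher (98.5 to 103 FPKM against 40.6 to 57.2), and none of either list was at 0. The same lists set the 2 libraries at 120 h apart, with 52.0 and 2.82 FPKM for endothelium and 151 and 49.3 FPKM for endoderm in replicates 1 and 2. Their part in the epithelial values was not tested.

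**Figure D1:**
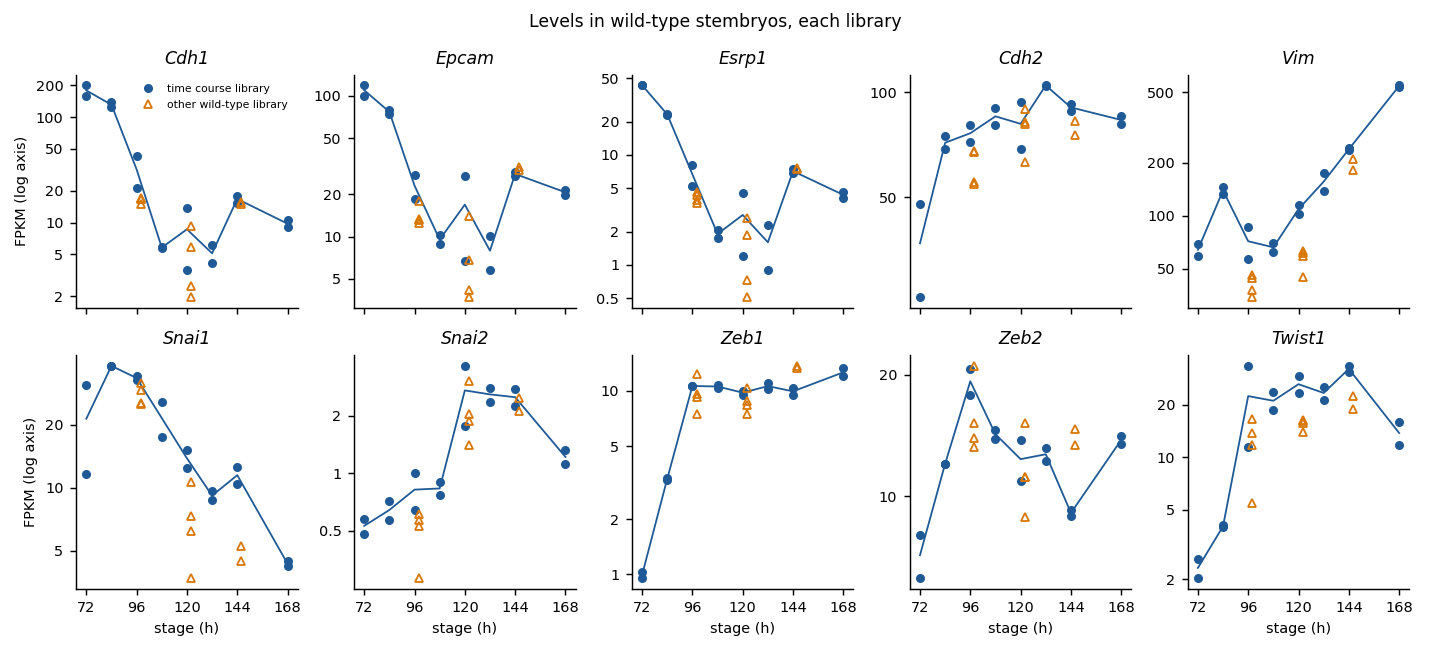
Levels of the 10 members in wild-type stembryos. Each panel plots FPKM on a log axis against the stage in hours, with filled circles for the 16 time-course libraries, a line through their mean at each stage and open triangles for the 10 wild-type libraries outside the time course. Cdh1, Epcam and Esrp1 are lowest between 108 and 132 h and higher at 144 h, Zeb1 reaches a plateau near 10 FPKM at 96 h, and Vim ends near 544 FPKM.

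On the mesenchymal side, Cdh2 (ENSMUSG00000024304, chr18:16588877-16809246, - strand) encodes N-cadherin, the cadherin of mesenchymal and neural cells. It stood at 47.9 and 25.8 FPKM at 72 h, 68.5 and 74.8 FPKM at 84 h, 72.2 and 80.5 FPKM at 96 h and 80.8 and 89.9 FPKM at 108 h. The 4 later stages held between 68.6 FPKM (replicate 1 at 120 h) and 105 FPKM (replicate 1 at 132 h). The 72-h libraries were the 2 lowest of the 16. Cdh2 rose from 72 to 84 h (1.02 ± 0.16, adjusted p = 8.83e-06) and did not pass in any later interval. The rise was 1.47 without replicate 1 at 72 h and 0.58 without replicate 2. Its highest stage mean was 2.84 times the lowest, against 34.9 times for Cdh1, a difference in range and not in level.

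Vim (ENSMUSG00000026728, chr2:13573927-13582826, + strand) encodes vimentin, the intermediate filament protein typical of mesenchymal cells and also of neural progenitors. Its level was 69.0 and 59.2 FPKM at 72 h, 146 and 133 FPKM at 84 h, 56.8 and 86.6 FPKM at 96 h and 62.3 and 70.1 FPKM at 108 h. It read 115 and 103 FPKM at 120 h, 174 and 138 FPKM at 132 h, 235 and 241 FPKM at 144 h and 538 and 549.7 FPKM at 168 h. Vim was the member with the most changes, passing the threshold in 5 of the 7 intervals. It rose from 72 to 84 h (1.12 ± 0.15, adjusted p = 5.45e-07), fell from 84 to 96 h (-0.99 ± 0.15, adjusted p = 4.73e-06), and rose from 108 to 120 h (0.72 ± 0.15, adjusted p = 0.00182), from 132 to 144 h (0.62 ± 0.15, adjusted p = 0.00994) and from 144 to 168 h (1.19 ± 0.15, adjusted p = 4.48e-07). The call at 120 h was lost without replicate 1 at 108 h (0.63, adjusted p = 0.0536). The call at 144 h was lost without replicate 2 at 132 h (0.45, adjusted p = 0.252) and without replicate 1 (0.64, adjusted p = 0.0626) or 2 (0.60, adjusted p = 0.0915) at 144 h. Over the whole course, 6 of 6 neural progenitor genes rose too (249 to 262 FPKM summed at 168 h against 8.56 to 8.66 at 72 h), and their part in the Vim level was not tested.

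Among the transcription factors, Snai1 (ENSMUSG00000042821, chr2:167538195-167542814, + strand) encodes SNAIL, a zinc-finger repressor of Cdh1 that is required for mesoderm cells to leave the epiblast. Its levels were 31.1 and 11.6 FPKM at 72 h, 38.3 and 38.2 FPKM at 84 h, 32.6 and 34.3 FPKM at 96 h and 17.5 and 25.6 FPKM at 108 h. They were 12.5 and 15.2 FPKM at 120 h, 8.74 and 9.60 FPKM at 132 h, 10.4 and 12.6 FPKM at 144 h and 4.22 and 4.46 FPKM at 168 h. Snai1 was highest at 84 and 96 h, and by 108 h, when Cdh1 and Esrp1 had fallen a second time, it read lower than at 96 h without passing. It rose from 72 to 84 h (1.00 ± 0.31, adjusted p = 0.0218) and fell from 144 to 168 h (-1.38 ± 0.31, adjusted p = 0.00251). The rise rested on replicate 2 at 72 h, without which it was 0.30 (adjusted p = 0.739), and was also lost without replicate 1 (1.00, adjusted p = 0.108) or 2 (1.01, adjusted p = 0.0909) at 84 h. The fall was lost without replicate 2 at 144 h (-1.24, adjusted p = 0.0513).

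Snai2 (ENSMUSG00000022676, chr16:14705852-14709385, + strand) encodes SLUG, the second SNAIL factor, best known from neural crest. It lay between 0.482 and 0.998 FPKM in all 8 libraries from 72 to 108 h and between 1.11 and 3.65 FPKM in all 8 from 120 h on. These are low levels, and the 2 ranges did not overlap. Snai2 rose from 108 to 120 h (1.51 ± 0.30, adjusted p = 0.00124), with 3.65 and 1.77 FPKM at 120 h, but not past the threshold without replicate 1 at 120 h (1.01, adjusted p = 0.105). The sum of 6 neural crest genes moved with it, from 11.14 and 10.98 FPKM at 108 h to 35.4 and 22.7 FPKM at 120 h in replicates 1 and 2, with both of the 2 tested genes higher. Their part in the Snai2 level was not tested. It fell from 144 to 168 h (-0.98 ± 0.30, adjusted p = 0.0312), a call that was lost without replicate 1 (-1.12, adjusted p = 0.0755) or 2 (-0.84, adjusted p = 0.235) at 144 h and without replicate 1 (-0.87, adjusted p = 0.209) or 2 (-1.09, adjusted p = 0.0876) at 168 h. The ratio of Snai1 to Snai2 FPKM was 64.6 and 20.2 at 72 h and 3.80 and 3.38 at 168 h.

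Zeb1 (ENSMUSG00000024238, chr18:5591864-5775467, + strand) and Zeb2 (ENSMUSG00000026872, chr2:44983632-45117395, - strand) encode zinc-finger and homeodomain repressors of epithelial genes. Zeb1 read 1.03 and 0.955 FPKM at 72 h, 3.37 and 3.27 FPKM at 84 h and 10.7 and 10.6 FPKM at 96 h. From 96 to 168 h its 12 libraries stayed between 9.497 and 13.2 FPKM. Replicates lay close together, and Zeb1 rose in both of the first intervals by the same amount, 1.65 ± 0.14 on the log2 scale (adjusted p = 2.67e-11 to 84 h and 3.91e-11 to 96 h). Zeb2 read 6.29 and 8.03 FPKM at 72 h, 12.1 in both libraries at 84 h and 17.8 and 20.7 FPKM at 96 h, its highest stage. It was 8.94 and 9.26 FPKM at 144 h and 14.2 and 13.5 FPKM at 168 h. Zeb2 rose from 72 to 84 h (0.75 ± 0.16, adjusted p = 0.000753), from 84 to 96 h (0.67 ± 0.16, adjusted p = 0.00208) and from 144 to 168 h (0.60 ± 0.16, adjusted p = 0.0123). The second rise missed the threshold without replicate 2 at 96 h (0.56, adjusted p = 0.0503). The third missed it without replicate 1 (0.57, adjusted p = 0.0972) or 2 (0.62, adjusted p = 0.0617) at 144 h and without replicate 1 (0.56, adjusted p = 0.104) or 2 (0.63, adjusted p = 0.0588) at 168 h. The ratio of Zeb1 to Zeb2 FPKM went from 0.164 and 0.119 at 72 h to 1.06 and 1.12 at 144 h. On the strand opposite to Zeb1 the annotation holds Gm10125, which reached at most 0.876 FPKM.

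Twist1 (ENSMUSG00000035799, chr12:33957671-33959829, + strand) encodes a basic helix-loop-helix factor of mesoderm and limb mesenchyme. It was at 2.62 and 2.04 FPKM at 72 h, 4.08 and 3.98 FPKM at 84 h, 11.4 and 33.3 FPKM at 96 h and 18.5 and 23.5 FPKM at 108 h. It stayed between 21.3 and 33.4 FPKM from 120 to 144 h and was 11.7 and 15.8 FPKM at 168 h. Twist1 rose from 84 to 96 h (2.25 ± 0.42, adjusted p = 0.000111), where the 2 libraries differed most. The rise was 3.02 without replicate 1 at 96 h and 1.48 (adjusted p = 0.0269) without replicate 2. Replicate 2 at 96 h also had the higher endoderm sum, with 663 against 143 FPKM, and the higher Cdh1 and Vim of its stage, and the part of this difference in the values at 96 h was not tested.

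Counted by interval, 5 members passed from 72 to 84 h, all of them higher (16.3% of all genes tested), and 7 from 84 to 96 h, 3 higher and 4 lower (20.7%). From 96 to 108 h, 2 members passed, both lower (9.45%), and from 108 to 120 h 2 passed, both higher (7.06%). From 120 to 132 h, 0 passed in limma (2.46%), while 2, Cdh2 and Vim, had an unadjusted p under 0.05. From 132 to 144 h, 4 passed, all higher (5.42%), and from 144 to 168 h 4 passed, 2 higher and 2 lower (9.87%). The early rise of Cdh2, Vim, Snai1 and the Zeb genes to 84 h thus preceded the interval in which Cdh1, Epcam and Esrp1 first passed the threshold. The epithelial members already read lower at 84 than at 72 h in all libraries, without passing.

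The ratio of Cdh1 to Cdh2 FPKM sets both cadherins on one scale. It was 3.27 and 7.76 at 72 h, 1.81 and 1.83 at 84 h, 0.296 and 0.526 at 96 h and 0.0730 and 0.0634 at 108 h. Cdh1 was thus the higher of the pair per length in the 4 libraries up to 84 h, and Cdh2 in all 12 later ones. The ratio read 0.201 and 0.0376 at 120 h, 0.0394 and 0.0584 at 132 h, 0.204 and 0.167 at 144 h and 0.123 and 0.111 at 168 h. From 96 h on it remained below 1, also after the rise of Cdh1 at 144 h, when Cdh2 read 88.5 and 92.4 FPKM.

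**Figure D2:**
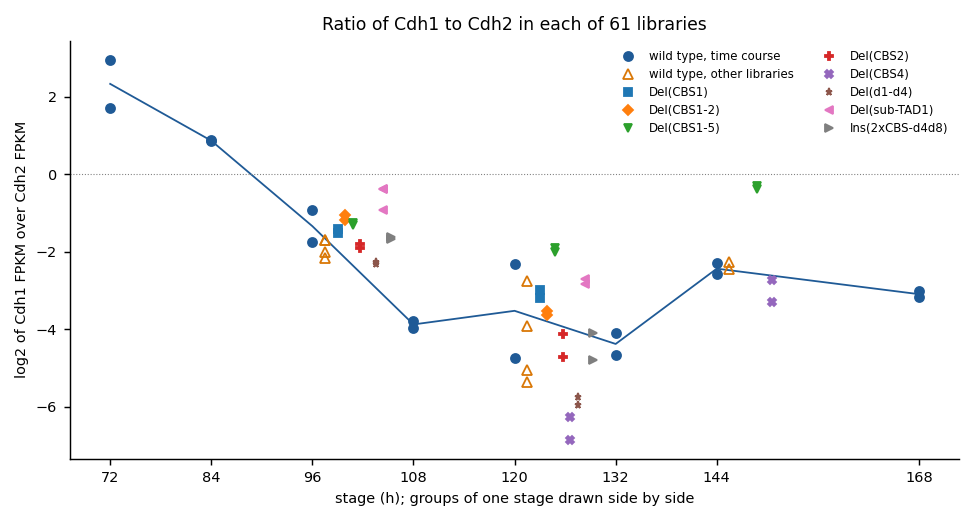
Ratio of Cdh1 to Cdh2 in each of the 61 libraries. The vertical axis is the log2 of the ratio of FPKM values and the horizontal axis the stage in hours, with the groups of a stage drawn side by side and a line through the mean of the time course. The 4 libraries at 72 and 84 h lie above 0 (equal FPKM), all others below, and Del(CBS1-5) at 144 h lies nearest to 0 among libraries after 96 h.

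Wider lists showed how far other genes of these classes moved (members left out). From 84 to 96 h, 15 of 31 tested epithelial junction and keratin genes fell (median of the list, -1.19, against -0.01 over all genes). From 132 to 144 h, 16 of the 31 rose (median, 1.56). Over the whole course 15 fell and 3 rose (median, -0.82), and the counts of this and the following lists from 72 to 168 h stand beside the 48.2% of all genes that passed. Dsg2, a desmosomal cadherin, read 15.3 and 19.5 FPKM at 72 h and 1.08 and 0.811 FPKM at 168 h (-4.07 ± 0.30, adjusted p = 6.24e-14), and Ap1m2 34.2 and 26.1 against 2.37 and 2.97 FPKM (-3.44 ± 0.71, adjusted p = 1.00e-04). Krt19, a keratin, and Cldn3, a claudin of tight junctions, went the other way, Krt19 from 1.98 and 1.68 to 23.4 and 18.2 FPKM (3.43 ± 0.67, adjusted p = 4.76e-05) and Cldn3 from 2.91 and 4.85 to 8.51 and 7.71 FPKM (1.09 ± 0.43, adjusted p = 0.0343).

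Of 24 tested mesenchymal genes, 14 rose and 3 fell from 72 to 168 h (median, 0.76). Acta2, a smooth muscle actin, went from 0.437 and 0.170 to 12.7 and 10.2 FPKM (4.92 ± 0.39, adjusted p = 5.75e-13). Col3a1, a fibrillar collagen, stood at 0.00866 and 0.0935 FPKM at 72 h and 25.5 and 32.2 FPKM at 168 h, so that its fold depends on the pseudocount. Thy1, a surface glycoprotein, fell from 4.30 and 6.82 to 0.0917 and 0.104 FPKM (-4.80 ± 0.40, adjusted p = 1.83e-12), and Lgals1, a galectin, from 80.8 and 113 to 38.4 and 36.3 FPKM (-1.35 ± 0.16, adjusted p = 8.31e-09).

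Of 16 tested transcription factors linked to EMT, 8 rose and 6 fell over the course. Eomes and Msgn1, factors of the primitive streak and of presomitic mesoderm, were among the latter, Eomes from 79.2 and 21.3 FPKM at 72 h to 0.0710 and 0.0638 FPKM at 168 h and Msgn1 from 51.3 and 33.1 FPKM to 0.430 and 0 FPKM. Msgn1 peaked with Snai1 at 84 h, at 277 and 311 FPKM. Foxc2 and Twist2 rose, Foxc2 from 0.0183 and 0.0220 to 7.64 and 8.71 FPKM and Twist2 from 0.122 and 0 to 3.95 and 4.85 FPKM. Of 5 catenins, the cytoplasmic partners of cadherins, 3 rose and 1 fell. Ctnna2 rose (1.70 ± 0.25, adjusted p = 3.75e-07) and Ctnnd1, the p120 catenin, fell from 79.1 and 74.9 to 54.2 and 53.9 FPKM (-0.51 ± 0.10, adjusted p = 2.65e-05). Of 8 tested RNA-binding proteins of epithelial or mesenchymal splicing, 2 rose and 1, Rbm47, fell (6.39 and 2.88 to 0.546 and 0.556 FPKM). Qk rose from 28.3 and 29.6 to 157 and 61.4 FPKM, with the 168-h libraries far apart. Ptbp1 rose from 322 and 295 to 369 and 364 FPKM.

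**Figure D3:**
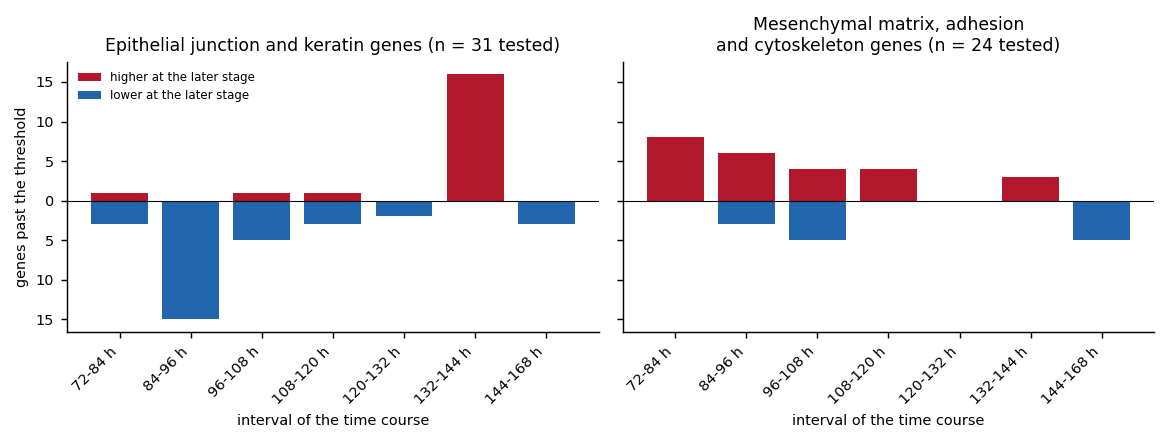
Wider gene lists over the 7 intervals of the time course. Bars count the genes past the threshold, upward for genes higher at the later stage and downward for genes lower, in 31 tested epithelial genes (left) and 24 tested mesenchymal genes (right). The epithelial list has 15 lower genes from 84 to 96 h and 16 higher genes from 132 to 144 h.

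Over the 16 time-course libraries, log2 levels of Cdh1 had a Pearson correlation of 0.965 with Epcam and with Esrp1, and Epcam and Esrp1 one of 0.982. With Zeb1 the correlation of Cdh1 was -0.84, with Cdh2 -0.75 and with Snai1 0.511. These points share stages and, in part, cell composition, and the values are descriptions. Across the 45 other libraries, taken as deviations from the mean of their stage, Cdh1 correlated at 0.938 with Epcam, 0.955 with Esrp1 and -0.72 with Cdh2, but at -0.26 with Zeb1. The 3 genes nearest to Cdh1 over the 16 libraries were Pxdc1 (0.982), Ppl (0.981) and F2rl1 (0.979), those nearest to Cdh2 were Hdac7 (0.949), Csnk1e (0.936) and Stk16 (0.934), and those nearest to Vim were Hhipl1 (0.968), Srgap3 (0.956) and Cdkn1c (0.951). For Snai1 they were Il17ra (0.941), Aplnr (0.939) and Rftn1 (0.939).

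The wild-type libraries outside the time course gave a second view of the interval from 96 to 120 h, with 4 libraries at each stage. Here 8 of 10 members passed (27.1% of all genes tested), 3 higher and 5 lower at 120 h. Cdh1 read 16.9, 15.1, 16.8 and 17.1 FPKM at 96 h and 2.503, 1.96, 9.25 and 5.92 FPKM at 120 h. The groups did not overlap, and replicate 3, which had the highest pluripotency and endoderm sums at 120 h, was the highest at that stage. Cdh1 fell by 1.99 on the log2 scale (SE, 0.31, adjusted p = 3.77e-06), Epcam by 1.17 (SE, 0.29, adjusted p = 0.00222) and Esrp1 by 1.71 (SE, 0.33, adjusted p = 0.000103). The stages overlapped for Epcam (12.6 to 18.04 and 3.69 to 14.1 FPKM) and not for Esrp1 (3.62 to 4.62 and 0.506 to 2.65 FPKM). Snai1 was at 25.4, 31.8, 29.4 and 25.1 FPKM at 96 h and at 7.30, 6.19, 10.6 and 3.71 FPKM at 120 h (-2.08 ± 0.22, adjusted p = 1.89e-09). Snai2 went the opposite way, from 0.282, 0.527, 0.609 and 0.567 FPKM to 2.03, 1.88, 1.41 and 3.02 FPKM (1.86 ± 0.21, adjusted p = 9.94e-09). Neither SNAIL gene overlapped between the stages. With the fall of Snai1, 6 of 6 presomitic mesoderm genes were lower (sums of 571 to 749 FPKM at 96 h and 76.0 to 134 FPKM at 120 h). The sum of neural crest genes was higher, at 16.5 to 26.5 against 3.35 to 5.11 FPKM, with 1 of the 2 tested genes passing. In addition, 4 of 6 neural progenitor genes were higher (30.5 to 59.7 against 9.15 to 16.3 FPKM) and 2 of 7 pluripotency genes lower (12.5 to 114 against 33.8 to 133 FPKM). The part of these markers in the changes of the members was not tested. Vim (0.49 ± 0.11, adjusted p = 0.000443) and Cdh2 (0.36 ± 0.11, adjusted p = 0.0138) rose and Zeb2 fell (-0.45 ± 0.11, adjusted p = 0.00231), with overlapping libraries in each. The Cdh2 call was lost without replicate 3 at 96 h (0.31, adjusted p = 0.0581) or replicate 4 at 120 h (0.30, adjusted p = 0.0558). Within set 1 alone, 3 libraries at each stage, 7 members passed and Cdh2 did not (0.25, adjusted p = 0.145).

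Between wild-type libraries outside and in the time course at the same stage, 1 member differed at 96 h (32.3% of all genes tested), 3 at 120 h (30.1%) and 3 at 144 h (21.5%), and at 96 and 120 h series and library set are mixed, since 3 of the 4 libraries outside belonged to set 1 and all time-course libraries to set 2. Vim was lower outside the time course at 96 h, with 34.4 to 46.4 FPKM against 56.8 and 86.6 FPKM (-0.79 ± 0.13, adjusted p = 7.02e-05, and -0.49 without time-course replicate 2), and at 120 h, with 45.2 to 63.3 FPKM against 115 and 103 FPKM (-0.94 ± 0.13, adjusted p = 5.47e-06). Snai1 was lower at 120 h (-1.07 ± 0.27, adjusted p = 0.003) and at 144 h, where it read 5.29 and 4.49 FPKM against 10.4 and 12.6 FPKM (-1.21 ± 0.31, adjusted p = 0.00427). The former call was lost without replicate 2 of the time course (-0.93, adjusted p = 0.0518), the latter without replicate 2 outside (-1.10, adjusted p = 0.0584) or in the time course (-1.08, adjusted p = 0.0605). Zeb1 was higher outside at 144 h (13.4 and 13.7 against 9.497 and 10.4 FPKM, 0.44 ± 0.14, adjusted p = 0.019), a call lost without replicate 1 (0.46, adjusted p = 0.0706) or 2 (0.43, adjusted p = 0.107) outside or replicate 1 of the time course (0.38, adjusted p = 0.151). Zeb2 was higher too (0.62 ± 0.16, adjusted p = 0.0047), except without replicate 2 outside (0.56, adjusted p = 0.0636). The difference in Epcam at 120 h (-1.11 ± 0.36, adjusted p = 0.018) rested on replicate 1 of the time course, without which it was -0.11 (adjusted p = 0.907), and was lost without replicate 1 (-0.92, adjusted p = 0.0624) or 2 (-0.86, adjusted p = 0.0748) outside. The epithelial levels at 144 h lay close together in both series, with Cdh1 at 15.7 and 15.1 FPKM outside and 18.03 and 15.5 FPKM in the time course.

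Mutants were compared with wild type of their stage outside the time course, so that comparisons at one stage share their controls. Of 170 tests of a member in a mutant condition, 36 passed, 20 with higher and 16 with lower levels, against 12.1% of all tests over all genes in these conditions. With controls of the same library set 25 passed, against 6.24% over all genes, and 21 passed in both ways. By member, Cdh1 passed in 5 of the 17 conditions, Epcam, Esrp1 and Vim in 6 each, Zeb2 in 4, Snai1 in 3, Cdh2 and Snai2 in 2 each, and Zeb1 and Twist1 in 1 each.

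**Figure D4:**
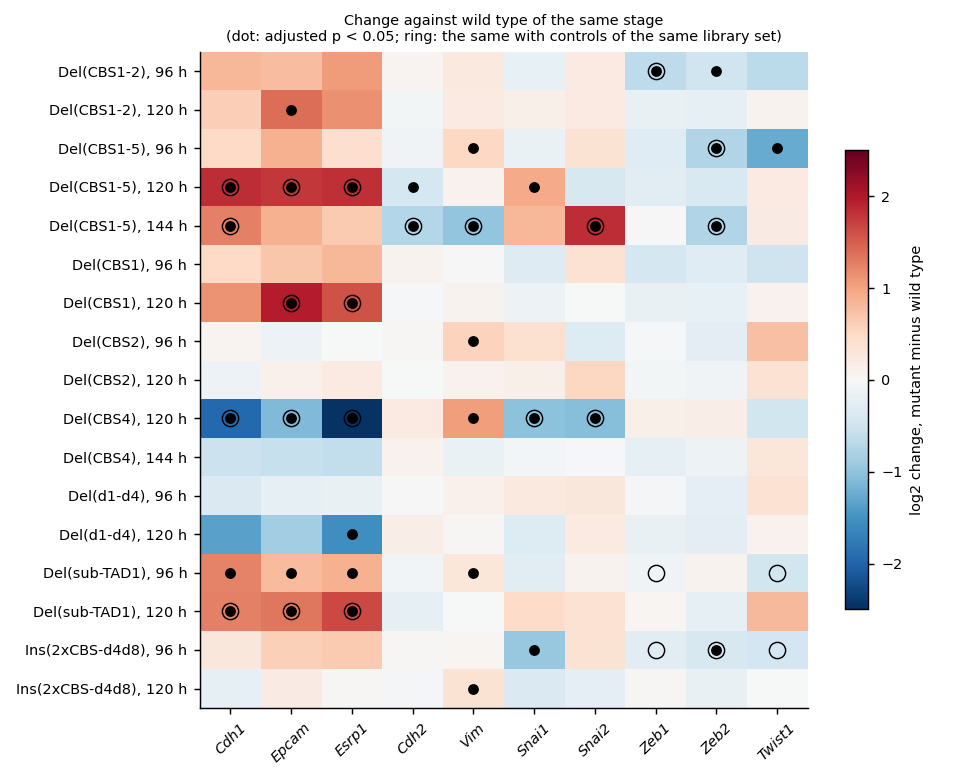
Changes of the 10 members in the 17 mutant conditions. Colour gives the log2 change against wild type of the same stage (red higher, blue lower), a dot marks an adjusted p under 0.05 and a ring the same with controls of the same library set. Del(CBS1-5) and Del(sub-TAD1) at 120 h are red for Cdh1, Epcam and Esrp1, and Del(CBS4) at 120 h is blue for them.

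In Del(CBS1-5), which lacks 5 of the CTCF sites, Cdh1, Epcam and Esrp1 were higher at 120 h, and Cdh1 alone of them passed at 144 h. At 96 h 3 members passed (14.8% of all genes tested), at 120 h 5 (13.3%) and at 144 h 5 (23.7%). At 120 h Cdh1 read 14.2 and 15.4 FPKM, Epcam 20.3 and 22.3 FPKM and Esrp1 4.17 and 4.71 FPKM, above all 4 controls (1.96 to 9.25, 3.69 to 14.1 and 0.506 to 2.65 FPKM). Wild-type time-course replicate 1 at 120 h, not among these controls, was as high. It lay above both mutant libraries for Epcam, between them for Esrp1 and just below them for Cdh1. Cdh1 rose by 1.84 ± 0.38 (adjusted p = 0.00138), Epcam by 1.76 ± 0.36 (adjusted p = 0.00128) and Esrp1 by 1.82 ± 0.40 (adjusted p = 0.00254) on the log2 scale, the last not past the threshold without replicate 2 of the mutant (1.73, adjusted p = 0.0575). All 3 passed with the 3 controls of the same set. Cdh2 was lower, at 56.9 and 58.0 FPKM against 63.0 to 89.3 FPKM (-0.45 ± 0.14, adjusted p = 0.0269), and Snai1 higher, at 13.4 and 11.7 FPKM against 3.71 to 10.6 FPKM (0.94 ± 0.27, adjusted p = 0.0177). With controls of the same set, neither Cdh2 (-0.38, adjusted p = 0.118) nor Snai1 (0.67, adjusted p = 0.334) passed. The Cdh2 call was also lost without replicate 1 (-0.42, adjusted p = 0.0612), 2 (-0.43, adjusted p = 0.0566) or 4 (-0.38, adjusted p = 0.0793) of wild type or replicate 1 (-0.43, adjusted p = 0.198) or 2 (-0.46, adjusted p = 0.145) of the mutant, and the Snai1 call without wild-type replicate 4 (0.67, adjusted p = 0.0768) or mutant replicate 1 (0.84, adjusted p = 0.201) or 2 (1.03, adjusted p = 0.0892).

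At 144 h, Cdh1 in Del(CBS1-5) was at 37.3 and 37.0 FPKM against 15.7 and 15.1 FPKM (1.27 ± 0.44, adjusted p = 0.0322). This call was lost without replicate 1 (1.29, adjusted p = 0.111) or 2 (1.24, adjusted p = 0.130) of wild type and replicate 1 (1.26, adjusted p = 0.122) or 2 (1.27, adjusted p = 0.114) of the mutant. Epcam (56.3 and 57.3 against 31.1 and 29.9 FPKM) and Esrp1 (12.2 and 11.6 against 7.55 and 7.38 FPKM) did not pass. Mesenchymal members were lower, Cdh2 at 48.7 and 46.0 against 75.4 and 82.6 FPKM (-0.73 ± 0.16, adjusted p = 0.000584), Vim at 94.3 and 101 against 209 and 181 FPKM (-0.996 ± 0.15, adjusted p = 3.4e-06) and Zeb2 at 8.91 and 7.76 against 13.4 and 14.7 FPKM (-0.75 ± 0.16, adjusted p = 0.000543). Snai2 rose, to 8.73 and 8.28 FPKM from 2.48 and 2.12 FPKM (1.85 ± 0.30, adjusted p = 1.37e-05), which were its highest values among the 61 libraries. The calls on Cdh2, Vim, Zeb2 and Snai2 held without any 1 library. With controls of the same set, which add the time-course libraries, 5 members passed as well. Wild-type Zeb2 in the time course at 144 h lay only just above the higher mutant library. The neural progenitor sum was lower too, at 60.7 to 62.4 against 143 to 157 FPKM in wild type, as was that of presomitic mesoderm (16.1 to 17.9 against 34.9 to 37.5 FPKM). The somite sum was higher, at 361 to 363 against 208 to 217 FPKM. The part of these markers in the Cdh2 and Vim levels was not tested. The ratio of Cdh1 to Cdh2 was 0.766 and 0.803, against 0.208 and 0.183 in wild type. Of the wider lists, 11 of 24 mesenchymal genes rose (median, 0.53) while Cdh2 and Vim were lower, and 3 of 31 epithelial genes rose and 4 fell.

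At 96 h the members that passed in Del(CBS1-5) were Vim, Zeb2 and Twist1. Vim read 59.4 and 57.1 FPKM against 34.4 to 46.4 FPKM (0.53 ± 0.13, adjusted p = 0.00479). Zeb2 was at 9.01 and 9.42 FPKM against 13.2 to 21.1 FPKM (-0.75 ± 0.14, adjusted p = 0.000284) and Twist1 at 4.56 and 4.47 FPKM against 5.46 to 16.5 FPKM (-1.27 ± 0.36, adjusted p = 0.0151). With controls of the same set only Zeb2 passed (-0.61, adjusted p = 0.0038), while Vim (0.45, adjusted p = 0.191) and Twist1 (-1.07, adjusted p = 0.0642) did not. The Vim call was lost without mutant replicate 1 (0.50, adjusted p = 0.0801) and that of Twist1 without mutant replicate 1 (-1.28, adjusted p = 0.114) or 2 (-1.25, adjusted p = 0.130). Markers of undifferentiated cells were higher in Del(CBS1-5) at every stage. The summed level of 7 pluripotency genes was 274 to 279 FPKM at 96 h (6 genes higher), 177 to 202 FPKM at 120 h (5 higher) and 345 to 359 FPKM at 144 h (6 higher, 1 lower), against 33.8 to 133, 12.5 to 114 and 4.45 to 6.69 FPKM in wild type. The sum of 5 germ cell genes was 42.3 to 48.3 against 3.24 to 3.43 FPKM at 144 h, that of 7 endothelium genes 14.0 to 17.4 against 1.04 to 3.59 FPKM at 120 h, and that of 6 endoderm genes 163 to 170 against 37.8 to 39.4 FPKM at 144 h. Endothelium was at 4.21 to 4.43 against 1.07 to 1.78 FPKM at 96 h and 43.2 to 49.3 against 36.4 to 39.8 FPKM at 144 h. In the wild-type time course at 120 h it read 52.0 and 2.82 FPKM. Endoderm did not exceed the wild-type range at 120 h (155 to 177 against 30.1 to 178 FPKM) or at 96 h (114 to 138 against 135 to 195 FPKM). The part of these cells in the changes of the members was not tested.

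In Del(sub-TAD1), 3 members passed at 120 h (6.15% of all genes tested), all epithelial. Cdh1 was at 10.2 and 9.47 FPKM (1.25 ± 0.38, adjusted p = 0.0407), Epcam at 17.3 and 14.5 FPKM (1.33 ± 0.36, adjusted p = 0.0199) and Esrp1 at 4.57 and 3.36 FPKM (1.65 ± 0.40, adjusted p = 0.00966), each above all 4 controls and each past the threshold with controls of the same set too. With 1 mutant library left out these calls were lost, at 1.20 and 1.30 for Cdh1 (adjusted p = 0.288 and 0.227), 1.21 and 1.46 for Epcam (adjusted p = 0.243 and 0.117) and 1.43 and 1.86 for Esrp1 (adjusted p = 0.204 and 0.0570) without replicates 1 and 2. Without wild-type replicate 1 or 2, Cdh1 was at 1.03 (adjusted p = 0.139) and 0.91 (adjusted p = 0.163) and Epcam at 1.14 (adjusted p = 0.0751) and 1.09 (adjusted p = 0.0843). Wild-type time-course replicate 1 at 120 h, not among these controls, lay above both mutant libraries for Cdh1 and Epcam. For Esrp1 it lay between them. Of the wider epithelial list 16 of 31 genes rose (median, 0.96), and 3 of 6 endoderm genes were higher (65.5 to 71.7 FPKM summed, against 30.1 to 178 FPKM), whose part was not tested.

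At 96 h, 4 members passed in Del(sub-TAD1), against 40.0% of all genes tested. Cdh1 was at 32.2, 43.4 and 42.4 FPKM against 15.1 to 17.1 FPKM (1.24 ± 0.33, adjusted p = 0.00367). Epcam (0.79 ± 0.32, adjusted p = 0.0443), Esrp1 (0.89 ± 0.36, adjusted p = 0.0449) and Vim (0.31 ± 0.11, adjusted p = 0.0304) were also higher. Against the 3 wild-type libraries of the same set (14.1% of all genes), none of these 4 passed, with Cdh1 at 0.64 (adjusted p = 0.244), Epcam at 0.40 (adjusted p = 0.530), Esrp1 at 0.51 (adjusted p = 0.419) and Vim reversed at -0.14 (adjusted p = 0.709). Zeb1 (-0.33, adjusted p = 0.0366) and Twist1 (-1.22, adjusted p = 0.0152) passed there instead. The calls on Epcam, Esrp1 and Vim, unlike that on Cdh1, were also lost without single libraries. Esrp1 lost it without any 1 of the 4 wild-type and 3 mutant libraries (0.82 to 0.96, adjusted p = 0.0590 to 0.117), Epcam without wild-type replicate 1, 2 or 4 or mutant replicate 2 or 3 (0.72 to 0.77, adjusted p = 0.0724 to 0.124), and Vim without wild-type replicate 3 or 4 or any mutant library (0.23 to 0.31, adjusted p = 0.0574 to 0.103). The 3 mutant libraries were unlike each other, with Twist1 at 17.7, 5.39 and 5.06 FPKM, pluripotency genes at 76.0, 204 and 229 FPKM and endoderm genes at 558, 293 and 237 FPKM, summed, in replicates 1 to 3.

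Del(CBS1) had 0 passing members at 96 h in limma (1.23% of all genes tested), with 3 at an unadjusted p under 0.05, and 2 at 120 h (2.10%). At 120 h Epcam was at 22.7 and 26.4 FPKM (1.96 ± 0.36, adjusted p = 0.00165) and Esrp1 at 3.34 and 4.26 FPKM (1.59 ± 0.40, adjusted p = 0.0252), above all controls and past the threshold with controls of the same set. Wild-type time-course replicate 1 at 120 h, not among these controls, lay above both mutant libraries for Epcam and Esrp1. Cdh1, at 8.14 and 10.01 FPKM, overlapped with wild type and did not pass. Epcam missed the threshold without mutant replicate 2 (1.85, adjusted p = 0.0726). Esrp1 missed it without wild-type replicate 1 (1.38, adjusted p = 0.0567) or 2 (1.23, adjusted p = 0.0643) and without mutant replicate 1 (1.76, adjusted p = 0.156) or 2 (1.42, adjusted p = 0.401). In Del(CBS1-2), built on the same line, 1 member passed at 120 h (2.35%), Epcam at 15.99 and 16.98 FPKM (1.39 ± 0.36, adjusted p = 0.0345), which did not pass with controls of the same set (1.44, adjusted p = 0.0986). It was lost without wild-type replicate 4 (1.44, adjusted p = 0.0551) or mutant replicate 1 (1.43, adjusted p = 0.236) or 2 (1.35, adjusted p = 0.384). At 96 h 2 passed (4.49%), both lower. Zeb1 was at 5.88 and 6.11 FPKM against 7.47 to 12.3 FPKM (-0.66 ± 0.12, adjusted p = 0.00129) and Zeb2 at 11.3 and 10.7 FPKM against 13.2 to 21.1 FPKM (-0.50 ± 0.14, adjusted p = 0.0329). Zeb1 passed with controls of the same set (-0.53, adjusted p = 0.0195) and missed the threshold without mutant replicate 1 (-0.63, adjusted p = 0.0526). Zeb2 did not pass with those controls (-0.36, adjusted p = 0.297), without wild-type replicate 4 (-0.36, adjusted p = 0.171) or without mutant replicate 1 (-0.54, adjusted p = 0.211) or 2 (-0.46, adjusted p = 0.296).

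Of the wider epithelial list, 11 of 31 genes rose in Del(CBS1) at 120 h (median, 0.85) and 5 in Del(CBS1-2) at 120 h (median, 0.53). Endothelium genes were higher in both, 5 of 7, with sums of 11.2 to 16.7 FPKM in Del(CBS1) and 10.7 to 13.8 FPKM in Del(CBS1-2) against 1.04 to 3.59 FPKM in wild type outside the time course. In the time course at 120 h, the wild-type sums were 52.0 and 2.82 FPKM, a range that holds both mutants. Endoderm genes were higher for 3 and 2 of 6, and pluripotency genes lower for 5 and 6 of 7. The endoderm sums, 85.4 to 85.8 and 62.8 to 64.5 FPKM, lay within the range of the controls (30.1 to 178 FPKM). The part of these markers in the epithelial values was not tested.

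Del(CBS4) at 120 h held the lowest value of each epithelial member among the 61 libraries. There 6 members passed (37.5% of all genes tested), 5 of them lower, and 5 with the 3 controls of the same set (12.4%). Cdh1 was at 1.14 and 0.826 FPKM (-1.96 ± 0.38, adjusted p = 0.000225), Epcam at 3.19 and 2.54 FPKM (-1.10 ± 0.36, adjusted p = 0.0154) and Esrp1 at 0.143 and 0.124 FPKM (-2.46 ± 0.40, adjusted p = 2.73e-05), each below all 4 controls. The lower Esrp1 value stood for about 8.04 fragments. Snai1, at 4.03 and 2.47 FPKM (-1.02 ± 0.27, adjusted p = 0.00346), and Snai2, at 1.28 and 0.645 FPKM (-1.06 ± 0.26, adjusted p = 0.00208), were lower as well, Snai1 with 1 library inside the range of wild type (3.71 to 10.6 FPKM). Vim was higher, at 108 and 127 FPKM against 45.2 to 63.3 FPKM (1.05 ± 0.13, adjusted p = 2.76e-07). The epithelial and SNAIL calls held with the controls of the same set, but that on Vim did not (0.40, adjusted p = 0.242). Without mutant replicate 2, Epcam (-0.94, adjusted p = 0.157), Snai1 (-0.68, adjusted p = 0.161) and Snai2 (-0.62, adjusted p = 0.176) missed the threshold, and Epcam also without wild-type replicate 3 (-0.71, adjusted p = 0.0908). The ratio of Cdh1 to Cdh2 was 0.0129 and 0.00867, against 0.0241 to 0.147 in wild type.

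Against the controls outside the time course, 3 of them from set 1, not all epithelial genes followed in Del(CBS4) at 120 h. Of the wider list, 15 of 31 fell and 8 rose (median, -0.84). The counts of lists and markers were not repeated within set 2, where 12.4% rather than 37.5% of all genes passed. In the mesenchymal list, 9 of 24 fell. Neural progenitor genes were higher, 4 of 6, with sums of 150 to 217 against 30.5 to 59.7 FPKM, while 5 of 6 presomitic mesoderm genes, 3 of 6 endoderm genes (19.4 to 23.7 against 30.1 to 178 FPKM) and 5 of 7 pluripotency genes were lower. In wild-type libraries of set 2 at 120 h, the neural progenitor sum was 16.6 to 59.7 FPKM and the endoderm sum 49.3 to 151 FPKM. The neural crest sum was 9.27 to 13.9 against 16.5 to 26.5 FPKM, with 1 of the 2 tested genes lower. Their part in the values of the members was not tested. At 144 h, 0 members passed in limma in Del(CBS4) (2.05% of all genes tested), and 0 had an unadjusted p under 0.05. Cdh1 was then at 9.07 and 12.4 FPKM against 15.7 and 15.1 FPKM, and Epcam at 18.01 and 22.9 FPKM against 31.1 and 29.9 FPKM.

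**Figure D5:**
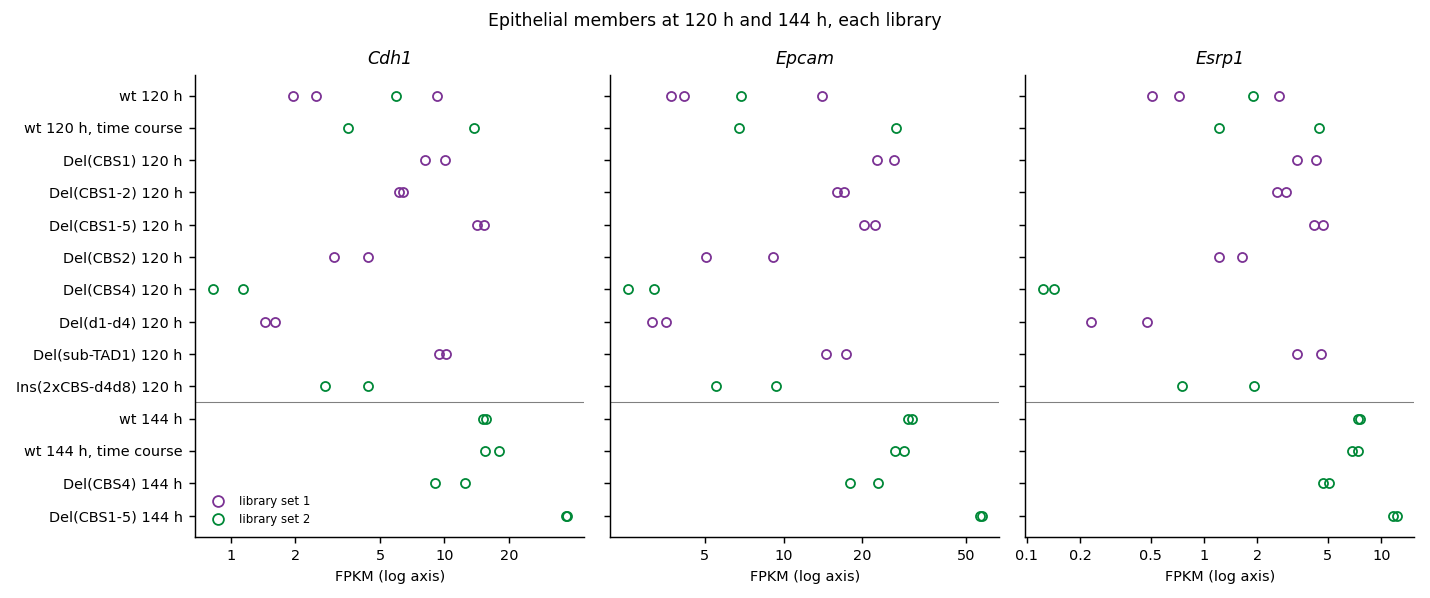
Cdh1, Epcam and Esrp1 in each library at 120 and 144 h. The horizontal axes give FPKM on a log scale, each circle is 1 library, and colour marks the library set told apart by mitochondrial mRNA. Del(CBS4) at 120 h lies below all wild-type libraries in the 3 panels, and Del(CBS1-5) lies above the 4 controls at 120 h and above every wild-type library at 144 h. At 120 h, 1 wild-type time-course library lies above Del(CBS1-5) for Epcam and between its libraries for Esrp1.

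In Del(d1-d4), 0 members passed at 96 h in limma (1.19% of all genes tested), and 0 had an unadjusted p under 0.05. At 120 h 1 member passed (1.85%), Esrp1, at 0.479 and 0.231 FPKM against 0.506 to 2.65 FPKM (-1.55 ± 0.40, adjusted p = 0.0354). It did not pass with controls of the same set (-1.34, adjusted p = 0.166), without wild-type replicate 3 (-1.19, adjusted p = 0.141) or 4 (-1.34, adjusted p = 0.123), or without mutant replicate 1 (-1.96, adjusted p = 0.0951) or 2 (-1.15, adjusted p = 0.567). Cdh1 (1.61 and 1.44 FPKM) and Epcam (3.55 and 3.14 FPKM) also lay below all 4 controls, without passing. The endoderm sum (20.7 to 22.5 against 30.1 to 178 FPKM) and the pluripotency sum (3.84 to 4.73 against 12.5 to 114 FPKM) lay below the controls too. The neural progenitor sum, at 33.7 to 37.7 FPKM, lay within their range (30.5 to 59.7 FPKM). The part of these markers in the epithelial values was not tested.

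Del(CBS2) had 1 passing member at 96 h (0.298% of all genes tested) and 0 in limma at 120 h (0.193%), where 1 had an unadjusted p under 0.05. Vim at 96 h was at 64.5 and 56.2 FPKM against 34.4 to 46.4 FPKM (0.57 ± 0.13, adjusted p = 0.0337). It did not pass with controls of the same set (0.50, adjusted p = 0.641), without wild-type replicate 3 (0.54, adjusted p = 0.0943) or 4 (0.50, adjusted p = 0.158), or without mutant replicate 1 (0.47, adjusted p = 0.441) or 2 (0.67, adjusted p = 0.109).

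In Ins(2xCBS-d4d8), where CTCF sites were added, 2 members passed at 96 h (27.9% of all genes tested) and 1 at 120 h (26.9%). With the 3 controls of the same set, 9.91% and 4.35% of all genes passed. At 96 h Snai1 was at 13.8 and 15.1 FPKM against 25.1 to 31.8 FPKM (-0.94 ± 0.27, adjusted p = 0.00905) and Zeb2 at 11.2 and 12.3 FPKM against 13.2 to 21.1 FPKM (-0.41 ± 0.14, adjusted p = 0.0246). With the controls of the same set Zeb2 passed (-0.76, adjusted p = 0.000858), Snai1 did not (-1.07, adjusted p = 0.0717), and Zeb1 (-0.51, adjusted p = 0.00622) and Twist1 (-1.20, adjusted p = 0.0419) passed in addition. Snai1 missed the threshold without mutant replicate 1 (-0.88, adjusted p = 0.101) or 2 (-1.005, adjusted p = 0.0516), and Zeb2 without wild-type replicate 4 (-0.27, adjusted p = 0.0983) or mutant replicate 1 (-0.35, adjusted p = 0.225) or 2 (-0.48, adjusted p = 0.0683). Markers moved too at 96 h. Of 6 neural progenitor genes, 2 were higher (sums of 26.6 to 32.3 against 9.15 to 16.3 FPKM), and of 6 presomitic mesoderm genes 2 were lower (479 to 489.6 against 571 to 749 FPKM), while 10 of 31 genes of the wider epithelial list rose. These counts used the controls outside the time course, 3 of them from set 1, and were not repeated within set 2. In wild-type libraries of set 2 at 96 h, the presomitic mesoderm sum was 447 to 715 FPKM, a range that holds both mutant libraries. The neural progenitor sum there was 11.5 to 21.8 FPKM. The 2 mutant libraries were unlike each other, with somite sums of 248 and 471 FPKM and endoderm sums of 71.1 and 183 FPKM in replicates 1 and 2. The part of these cells in the changes was not tested. At 120 h Vim was at 70.7 and 75.0 FPKM against 45.2 to 63.3 FPKM (0.36 ± 0.13, adjusted p = 0.0352), but the direction reversed against the controls of the same set (-0.28, adjusted p = 0.494). The call was lost without wild-type replicate 3 (0.25, adjusted p = 0.166) and without mutant replicate 1 (0.40, adjusted p = 0.109) or 2 (0.32, adjusted p = 0.223).

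For 9 pairs of stages, the effect of a mutant on each member at the earlier stage was subtracted from that at the later one. Of 90 such tests 3 passed, against 4.43% over all genes. In Del(CBS1-5) from 120 to 144 h, the effect on Vim was lower by 1.10 on the log2 scale (-1.10 ± 0.20, adjusted p = 0.00033) and that on Snai2 higher (2.26 ± 0.40, adjusted p = 0.000266). Snai2 in this mutant was at 1.44 and 1.52 FPKM at 120 h, within the range of wild type, and at 8.73 and 8.28 FPKM at 144 h. In Del(CBS4) from 120 to 144 h, the effect on Vim was lower (-1.22 ± 0.20, adjusted p = 8.57e-05). With controls of the same set 6 passed (1.56% over all genes), among them both in Del(CBS1-5), but not Vim in Del(CBS4) (-0.72, adjusted p = 0.234). The others were Cdh1 (2.06, adjusted p = 0.0306), Esrp1 (2.72, adjusted p = 0.00463) and Snai2 (1.37, adjusted p = 0.0249) in Del(CBS4) and Twist1 in Del(sub-TAD1) (2.04, adjusted p = 0.0212). None of the 3 calls was lost without any 1 library.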

How the data were processed

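RNA was measured by stranded poly-A sequencing of pooled stembryos in 61 libraries. According to the study's methods and the submitters' notes, the authors trimmed reads with cutadapt 1.16, aligned them with STAR 2.7.7a to mm10, kept unique alignments and ran Cufflinks 2.2.1 with an Ensembl annotation. The authors deposited gene FPKM values, normalised to transcript length and library depth, and no counts were used here. Columns of no sample numbered 0, and the merged and the per-library tables held 0 differing values. FPKM values do not allow a count model, so limma 3.58.1 (R 4.3.3) was fitted to log2(FPKM + 0.1), and fold changes on that scale understate changes of low genes. Genes with a mean of at least 1 FPKM in any of the 28 conditions entered (17098 of 55052), with 1 coefficient per condition, 1 estimate of spread per gene over all libraries, two-sided tests and Benjamini-Hochberg adjustment at 0.05 over all tested genes within a comparison. An error given as ± is the standard error. The study's methods state that replicates were biological. Depth was estimated from single-transcript genes (83.2% of low values came out whole within 0.02 fragments), and the depth of a library limits low values such as those of Snai2 and Esrp1.

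The 10 members and the gene lists were chosen with earlier results of these data known. From each wider list, the text names up to 2 genes with the largest rise and up to 2 with the largest fall from 72 to 168 h among those past the threshold, and for Cdh1, Cdh2, Snai1, Twist1 and Vim the 3 most correlated genes. The genes most correlated with Twist1 are not reported here. Alternatives were another pseudocount, no filter, other scalings, a variance trend, fits of only the groups compared, left-out replicates, a replicate block and controls of the same library set. Figures were drawn with matplotlib 3.10.9 (Python 3.11.15). Replicate numbers of the labels did not pair the libraries, as given with the processing alternatives.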

Additional observations from a re-analysis of the deposited data

Results flagged for a closer look

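In the 2 wild-type groups of 4 libraries outside the time course, 20 pairs of member and group were looked at for a library far from the others, and 2 were found. Chance gives about 1 in 20 such groups. Cdh1 in replicate 2 at 96 h was the lowest of its group at 15.1 FPKM, where the others read 16.8 to 17.1 FPKM. Epcam in replicate 3 at 96 h was the highest of its group at 18.04 FPKM, where the others read 12.6 to 13.4 FPKM, and that library also had the highest sum of pluripotency genes.

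Mutant effects that differed between 120 and 144 h (limma, difference of the log2 effects) were those of Del(CBS1-5) on Vim (-1.10, adjusted p = 0.00033) and on Snai2 (2.26, adjusted p = 0.000266) and that of Del(CBS4) on Vim (-1.22, adjusted p = 8.57e-05). In Del(CBS4) the difference in Vim did not pass with controls of the same library set (-0.72, adjusted p = 0.234).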

How the results depend on the processing

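Of the 88 changes of single members past the threshold, 87 kept their call with a pseudocount of 1 FPKM, 80 without a filter, 82 under upper quartile scaling, 83 under median of ratios scaling, all 88 with a variance trend and robust moderation, and 37 in fits of only the groups compared, and 0 of these changed direction. Fits of only the groups compared, which hold fewer libraries to estimate the spread, left 14 changes of members between neighbouring stages (24 in all libraries), 3 from 96 to 120 h outside the time course (8), 3 between wild-type series (7), 9 in the mutants (36) and 1 between stages of a mutant (3). Upper quartile scaling gave 13 differences between the wild-type series, and median of ratios scaling 5 between stages of a mutant. With controls of the same library set, 25 changes in mutants and 6 between stages of a mutant passed, 14 of 39 lost their call, and 2 reversed: Vim was at -0.14 in Del(sub-TAD1) at 96 h and at -0.28 in Ins(2xCBS-d4d8) at 120 h. The cause of these shifts was not tested.

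Same-numbered libraries did not deviate together (correlation of deviations, -0.09 to 0.13 over 28 pairs of time-course stages and -0.06 to 0.05 over 17 pairs of mutant and control). With the replicate number as a block, 30 of 70 changes between neighbouring stages, all 10 from 72 to 168 h, 43 of 170 in mutants and 10 of 90 between stages of a mutant passed. Differences between the wild-type series were left out of the fit with a block.

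Leaving out a replicate number throughout, or 1 library, gave 0 to 29 changes between neighbouring stages, 5 to 10 from 72 to 168 h, 2 to 10 over all stages, 2 to 8 from 96 to 120 h outside the time course, 0 to 13 between the wild-type series, 0 to 40 in mutants and 0 to 8 between stages of a mutant. The lowest counts came from dropping replicate number 1 or 2, which leaves most conditions with 1 library, assumed to vary like the rest. The difference in Epcam between the wild-type series at 120 h ran from -2.10 to 0.075. Of the 88 changes, 44 lost their call without some 1 library.

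Snai2 reached 1 FPKM in 33 of the 61 libraries and Esrp1 in 53, so their lowest values rest on few fragments.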
